A study of Homo sapiens with 24 samples.

Results

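The genes described are 38 members of the cholesterol and fatty acid synthesis pathways, taken by symbol out of 38849 genes in the deposited table. By role they are 8 genes of the mevalonate pathway, 3 that carry squalene to lanosterol, 9 that carry lanosterol to cholesterol, 5 of the SREBP regulatory system, 4 of sterol transport and 9 of fatty acid synthesis, desaturation and elongation. All 38 had a row, and 37 passed the filter for testing, a mean of at least 10 normalized counts over all libraries. The one left out, TM7SF2, a sterol C14 reductase, had group means from 2.55 to 14.8.

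HMLE cells, a human mammary epithelial line that was immortalized in culture, carried either LacZ, the bacterial β-galactosidase used as a control, or RBMS3, an RNA-binding protein expressed from a construct. Both lines were exposed to 10 µg/mL actinomycin D, a DNA-binding drug that blocks transcription, and collected at 0, 90, 180 and 360 min, with 3 libraries in each of 8 groups (24 libraries in all). The stated question of the study was which transcripts have a stability that depends on RBMS3. RNA was read as 3′ tags, so a library counts about 1 tag per transcript. The normalized counts are relative to the rest of a library, though not exact shares of its total or of its tags. A transcript that is lost more slowly than the rest rises, and the amount of RNA per cell was not measured. All cells shared the HMLE background and a medium with 10% fetal bovine serum, EGF, hydrocortisone and insulin, and 0 min is the group labelled as treated for no time. The labels give neither the promoter of the constructs, nor whether a line is 1 clone. They also do not say that replicate libraries are separate cultures, so each p-value measures only the spread between these libraries.

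Cells make cholesterol from acetyl-CoA by way of mevalonate, isoprenoid diphosphates, squalene and lanosterol, in the cytosol, the endoplasmic reticulum and, for some steps, peroxisomes. The genes of this route are switched on together by the transcription factor SREBP2, and those of fatty acid synthesis and desaturation mainly by SREBP1. Both factors are held in the endoplasmic reticulum by SCAP and the INSIG proteins while sterols are plentiful, and are released to be cut and to enter the nucleus when sterols fall. Dividing epithelial cells use the products for membranes, protein prenylation and lipid droplets.

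Library totals of normalized counts ran from 6638187 to 8080428, with 14193 to 15697 genes above 0. Values of RBMS3 itself were 27.6 to 165 in the 12 LacZ libraries and 174 to 358 in the 12 RBMS3 libraries, ranges that do not overlap. Whether 3′ tags count a construct with another 3′ end in full was not tested. The epithelial label did not hold in full: EPCAM, CDH1, ESRP1, TP63 and CLDN4 had medians of 0 to 2.86 in RBMS3 cells, against 157 to 2032 in LacZ cells. KRT5, KRT14, KRT8, KRT18 and DSP were present in both lines, and all 10 mesenchymal markers had higher medians in RBMS3 cells. These medians pool the 4 times. By the limma test described below, 1 epithelial marker was higher and 8 were lower in RBMS3 cells at 0 min (background 18.6% and 18.9%). At each later time all 10 were lower (background 15.0% to 17.7%). KRT14 had a median of 1073 and at most 6168 in RBMS3 cells, against 2931 and at most 3557 in LacZ cells. COL3A1 spanned 24 to 2000 in RBMS3 cells. In time order the summed epithelial markers of RBMS3 cells averaged 12505, 4719, 5134 and 6087, and the summed mesenchymal markers 55932, 42577, 43207 and 48278. The RBMS3 libraries at 0 min, from which every rise from 0 min in that line is counted, thus differed in these markers from the later ones. Every difference between the lines below therefore goes with a difference in cell state, and its part in the results was not tested. In bulk RNA, fewer cells of a type and less RNA per cell cannot be told apart. Of 16 leukocyte, endothelial, hepatocyte and adipocyte markers, CD14 was the highest (at most 44.8), and ALB, APOA1, TTR, ADIPOQ and PLIN1 reached at most 4.29 in any library. The adipocyte gene FABP4 had a median of 7.30 and at most 18.6 in RBMS3 cells, against 0.447 and at most 3.16 in LacZ cells, and LPL reached at most 3.07. LacZ replicate 2 at 0 min stood apart from its 2 partners for several members (DHCR7 at 183, SCD at 282, MVD at 474). Without it the calls at 0 min were 13 higher and 3 lower members, in place of the 15 and 4 given below.

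At each of the 4 times more members stood higher than lower in RBMS3 cells, and the median difference over the members was larger at 90 min than at 0 min. The summed normalized count of all 38 was 12491 ± 234 (SD, n = 3) in LacZ cells at 0 min and 13761 ± 320.1 at 360 min. The RBMS3 sum was 17424 ± 478 before the drug, 21917 ± 945 after 90 min and 25170 ± 526 after 360 min. The lines were compared at each time with limma on log2(normalized count + 1), and a gene was called at a Benjamini-Hochberg adjusted p under 0.05 over all 12096 tested genes. Each difference is given on that log2 scale ± SE, which understates the fold of low genes. Before the drug 15 of 37 members stood higher in RBMS3 cells and 4 stood lower, where 18.6% of all tested genes were called higher and 18.9% lower. With only the 2 groups compared in the fit, 8 were higher and 2 lower at 0 min. At 90 min 21 were higher and 0 lower (background 14.9% and 15.0%); no member was lower at an unadjusted limma p under 0.05 either. At 180 min 24 were higher and 1 lower (16.2% and 16.8%), and at 360 min 24 were higher and 0 lower (17.5% and 17.7%), again with none lower at an unadjusted p under 0.05. In time order the median difference over the 37 members was 0.29, 0.61, 0.81 and 0.71, with a median over all genes between -0.02 and 0.01. Of the members, 13 were higher at all 4 times and 8 at the 3 later times but not at 0 min; NSDHL, 1 of those 8, was lower at 0 min. The 7 members that passed at no time were GGPS1, SC5D, INSIG2, NPC1, ACACA, ELOVL5 and ELOVL6. When each library was rescaled to its ribosomal protein genes, the calls at 0 min became 7 higher and 6 lower, and those over all genes moved from 2250 higher and 2284 lower to 1346 and 3819. At 360 min that scaling left 22 members higher and 1 lower, with 1560 genes higher and 2781 lower against 2118 and 2141.

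**Figure D1:**
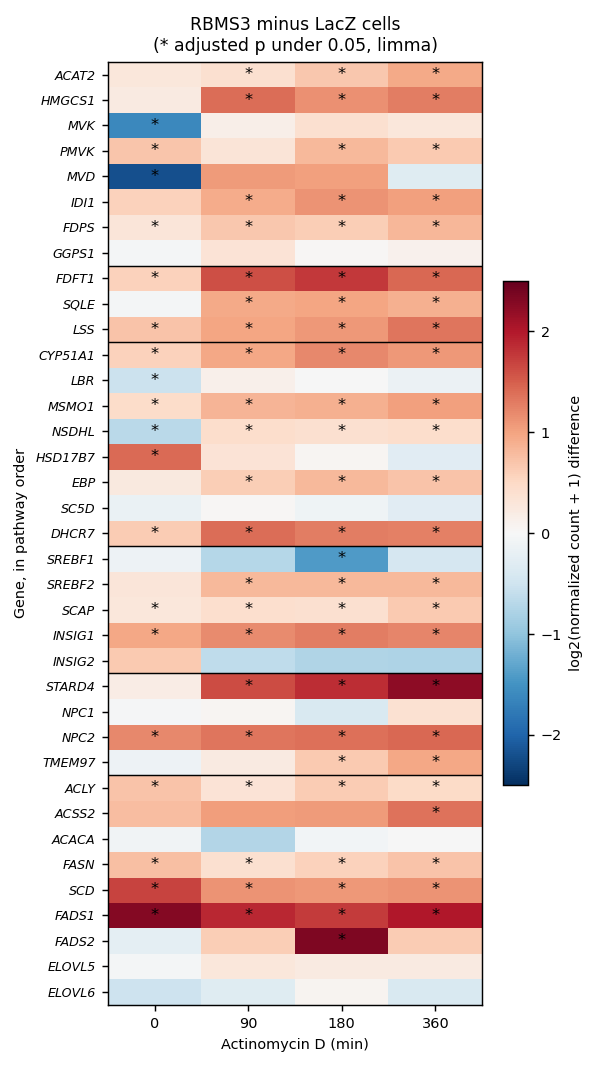
Difference between RBMS3 and LacZ cells for the 37 tested members, in pathway order from top to bottom, at each time of actinomycin D (columns, min); colour is the difference in log2(normalized count + 1), red for higher in RBMS3 cells, and stars mark an adjusted p under 0.05 (limma). Horizontal lines divide the 6 roles. The 90, 180 and 360 min columns hold 21, 24 and 24 stars of higher members, against 15 at 0 min.

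In the mevalonate pathway, 5 of 8 genes rose in RBMS3 cells over the first 90 min and none fell (nor at an unadjusted limma p under 0.05), where 7.99% of all tested genes rose and 6.52% fell; in LacZ cells 1 of 8 rose (background 3.44% rising, 2.74% falling). ACAT2, the cytosolic thiolase that joins acetyl-CoA units, measured 141, 189 and 170.0 in the 3 LacZ libraries before actinomycin D and 251, 264 and 250.4 after 90 min. After 180 min ACAT2 was at 198, 229 and 253 in LacZ cells, and after 360 min at 229, 279 and 232. For ACAT2, RBMS3 libraries measured 191, 201 and 210.4 before the drug, with 371, 313 and 324 after 90 min, then 353, 400.3 and 328 (180 min) and 525, 468 and 443 (360 min). ACAT2 thus rose in both lines by 90 min, and the RBMS3 libraries stood higher again at 360 min. The rise to 90 min was 0.62 ± 0.13 (adjusted p = 0.00791) in LacZ and 0.74 ± 0.13 (adjusted p = 0.000703) in RBMS3 cells. The line difference was 0.28 ± 0.13 (adjusted p = 0.117) at 0 min and 0.96 ± 0.13 (adjusted p = 9.92e-06) at 360 min. Between the lines at 90 min the difference was 0.39 ± 0.13 (adjusted p = 0.0322), a call lost without LacZ 90 min replicate 1 or 2 or 3 or RBMS3 90 min replicate 1 or 3 (0.32 to 0.42). Its 3′ end lies within TCP1 on the other strand, and no source used here gives the strand setting of the counting.

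HMGCS1, the HMG-CoA synthase that precedes the rate-limiting step, measured 399, 242 and 295 in the 3 LacZ libraries before actinomycin D and 228, 254 and 251 after 90 min. After 180 min HMGCS1 was at 264, 216 and 269 in LacZ cells, and after 360 min at 269, 221 and 287. For HMGCS1, RBMS3 libraries measured 390.1, 335 and 344 before the drug, with 741, 614 and 582 after 90 min, then 538, 598 and 519 (180 min) and 689, 597 and 591 (360 min). At 0 min the 2 lines overlapped. At every later time all 3 RBMS3 libraries stood above all 3 LacZ libraries, by 1.39 ± 0.16 (adjusted p = 5.76e-07) at 90 min. Over the first 90 min HMGCS1 rose by 0.85 ± 0.16 (adjusted p = 0.000731) in RBMS3 cells, while the LacZ change was -0.32 ± 0.16 (adjusted p = 0.237). MVK, mevalonate kinase, measured 71.7, 147 and 107 in the 3 LacZ libraries before actinomycin D and 79.2, 66.9 and 52 after 90 min. After 180 min MVK was at 64.2, 49.4 and 60.6 in LacZ cells, and after 360 min at 37.8, 48.1 and 37. For MVK, RBMS3 libraries measured 30, 39.2 and 31.8 before the drug, with 83.1, 60.1 and 75.3 after 90 min, then 75.8, 69.8 and 84.5 (180 min) and 52.2, 44 and 53.6 (360 min). MVK started on the other side: all 3 RBMS3 libraries lay below all 3 LacZ libraries at 0 min, by -1.61 ± 0.25 (adjusted p = 3.55e-05). It then rose in RBMS3 cells by 1.09 ± 0.25 (adjusted p = 0.00572) at 90 min and, by 360 min, fell in LacZ cells with a change of -1.34 ± 0.25 (adjusted p = 0.000497). At 360 min the line difference did not pass (0.28 ± 0.25, adjusted p = 0.419).

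The remaining 5 genes of this stretch split. FDPS, which makes farnesyl diphosphate, the branch point to squalene and to prenyl groups, averaged 552 ± 43.9 in LacZ and 976 ± 36.8 in RBMS3 cells at 360 min (SD, n = 3), a difference of 0.82 ± 0.10 (adjusted p = 2.01e-06). It was higher in RBMS3 cells at all 4 times. IDI1, the isopentenyl diphosphate isomerase, averaged 155 ± 28.2 and 290.4 ± 13.3 at 90 min and was higher in RBMS3 cells at the 3 later times. PMVK, the phosphomevalonate kinase, was higher at 0, 180 and 360 min, with 0.33 ± 0.19 (adjusted p = 0.207) at 90 min. GGPS1, which makes geranylgeranyl diphosphate for protein prenylation and not for sterols, passed no test, with differences from -0.04 ± 0.23 at 0 min to 0.34 ± 0.23 at 90 min. MVD, the mevalonate diphosphate decarboxylase, ranged from 18.9 to 519.9 over the libraries and spread as widely within groups as between them (RBMS3 360 min: 172, 519.9 and 83.9). It was called lower at 0 min (-2.20 ± 0.83, adjusted p = 0.0431) and rising by 90 min in RBMS3 cells (3.07 ± 0.83, adjusted p = 0.016). The first call was lost without LacZ 0 min replicate 2 or 3 or RBMS3 0 min replicate 1 or 2 (-2.26 to -1.53). The second was lost without RBMS3 0 min replicate 1 or 2 or RBMS3 90 min replicate 3 (2.55 to 2.97), and MVD values carry the factor described further down. Among other calls lost with 1 library left out, that of FDPS at 0 min was lost without LacZ 0 min replicate 1 or 3 or RBMS3 0 min replicate 2 or 3 (0.25 to 0.30). That of PMVK at 360 min was lost without LacZ 360 min replicate 2 (0.55). That of IDI1 at 90 min was lost without LacZ 90 min replicate 1 or RBMS3 90 min replicate 3 (0.76 to 0.89). The rise of IDI1 to 90 min in RBMS3 cells (0.89 ± 0.28, adjusted p = 0.0409) was lost when any 1 of its 6 libraries was left out (0.79 to 0.94).

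All 3 genes from squalene to lanosterol stood higher in RBMS3 cells at each time after the drug (background 14.9% to 17.5%). FDFT1 and SQLE, 2 of them, rose within the first 90 min in RBMS3 cells (background 7.99%), and the change differed from that in LacZ cells. FDFT1, squalene synthase, the first step committed to sterols, measured 385, 414 and 468 in the 3 LacZ libraries before actinomycin D and 427, 388 and 439.7 after 90 min. After 180 min FDFT1 was at 439.8, 426 and 405 in LacZ cells, and after 360 min at 514, 544 and 550.2. For FDFT1, RBMS3 libraries measured 632, 553 and 719.9 before the drug, with 1263, 1256 and 1306 after 90 min, then 1433, 1544 and 1359 (180 min) and 1591, 1459 and 1330.2 (360 min). The RBMS3 libraries stepped up between 0 and 90 min and held that level or more, and no LacZ library reached the RBMS3 libraries of its own time. FDFT1 rose by 1.01 ± 0.10 (adjusted p = 5.95e-07) by 90 min in RBMS3 cells, against a LacZ change of -0.01 ± 0.10 (adjusted p = 0.97). The line difference went from 0.58 ± 0.10 (adjusted p = 0.000104) at 0 min to 1.77 ± 0.10 (adjusted p = 1.87e-11) at 180 min. SQLE, squalene epoxidase, a rate-limiting oxygenase, measured 703, 1001 and 753 in the 3 LacZ libraries before actinomycin D and 756, 808 and 695 after 90 min. After 180 min SQLE was at 756, 706 and 600.5 in LacZ cells, and after 360 min at 623, 543 and 652. For SQLE, RBMS3 libraries measured 771, 793 and 775 before the drug, with 1513, 1343 and 1474 after 90 min, then 1345, 1419 and 1305 (180 min) and 1083, 1208 and 1058 (360 min). The lines overlapped at 0 min and were apart from 90 min on. SQLE rose by 0.89 ± 0.12 (adjusted p = 2.01e-05) to 90 min in RBMS3 cells and then fell between 90 and 360 min by 0.37 ± 0.12 (adjusted p = 0.0336), the one member called lower over that span. In LacZ cells it fell by 0.42 ± 0.12 (adjusted p = 0.00975) from 0 to 360 min. The first of these falls was not called without RBMS3 90 min replicate 1 or 3 or RBMS3 360 min replicate 1 or 3 (-0.35 to -0.33), nor the second without LacZ 0 min replicate 2 or LacZ 360 min replicate 2 (-0.34 to -0.27).

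LSS, lanosterol synthase, which closes the sterol rings, measured 93.2, 97.3 and 113 in the 3 LacZ libraries before actinomycin D and 103, 109 and 119 after 90 min. After 180 min LSS was at 99.4, 98.9 and 119 in LacZ cells, and after 360 min at 85.1, 84.5 and 123. For LSS, RBMS3 libraries measured 145, 212 and 150.2 before the drug, with 233, 263 and 171 after 90 min, then 240.2, 202 and 237 (180 min) and 273, 250.2 and 217 (360 min). Every RBMS3 library lay above every LacZ library at each time. The line difference was 0.72 ± 0.19 (adjusted p = 0.00598) at 0 min and 1.35 ± 0.19 (adjusted p = 1.35e-05) at 360 min. The change over the first 90 min passed in neither line, at 0.13 ± 0.19 (adjusted p = 0.772) in LacZ and 0.39 ± 0.19 (adjusted p = 0.195) in RBMS3 cells. LSS and HMGCS1 each end within an annotated antisense RNA gene on the other strand.

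Among the 8 tested genes from lanosterol to cholesterol, 6 rose in RBMS3 cells by 90 min (CYP51A1, LBR, MSMO1, NSDHL, EBP and DHCR7) and none fell, nor at an unadjusted limma p under 0.05, where 7.99% of all tested genes rose and 6.52% fell. In LacZ cells 1, CYP51A1, rose (background 3.44%). CYP51A1, the lanosterol 14α-demethylase, measured 487, 388 and 461 in the 3 LacZ libraries before actinomycin D and 539, 566 and 601 after 90 min. After 180 min CYP51A1 was at 537, 518 and 516 in LacZ cells, and after 360 min at 516, 576 and 619.6. For CYP51A1, RBMS3 libraries measured 677, 645 and 660.3 before the drug, with 1132, 1106 and 1082 after 90 min, then 1191, 1163 and 1263 (180 min) and 1230.1, 1094 and 1315 (360 min). All RBMS3 libraries stood above the LacZ libraries of the same time, by 0.57 ± 0.09 (adjusted p = 5.51e-05) at 0 min and 1.20 ± 0.09 (adjusted p = 2.62e-09) at 180 min. The rise to 90 min was 0.36 ± 0.09 (adjusted p = 0.0272) in LacZ and 0.74 ± 0.09 (adjusted p = 1.31e-05) in RBMS3 cells, and the former was lost without LacZ 0 min replicate 2 or LacZ 90 min replicate 2 or 3 (0.26 to 0.36). NSDHL, a sterol dehydrogenase of the C4 demethylation complex, measured 416, 556 and 423 in the 3 LacZ libraries before actinomycin D and 418, 472 and 446 after 90 min. After 180 min NSDHL was at 521, 494 and 364 in LacZ cells, and after 360 min at 416, 507 and 439. For NSDHL, RBMS3 libraries measured 331, 280.5 and 259.8 before the drug, with 678, 573 and 564 after 90 min, then 586, 556 and 671 (180 min) and 686, 589 and 567 (360 min). NSDHL changed sides: all 3 RBMS3 libraries were below the LacZ libraries at 0 min (-0.67 ± 0.15, adjusted p = 0.00109) and all 3 were above them at 90 min (0.44 ± 0.15, adjusted p = 0.0292). LacZ cells showed no such step (-0.05 ± 0.15, adjusted p = 0.891), and RBMS3 cells rose by 1.06 ± 0.15 (adjusted p = 4.29e-05). The calls at the later times were each lost when any 1 of 3 libraries was left out. These were LacZ 90 min replicate 1 or 3 or RBMS3 90 min replicate 1 (0.35 to 0.44), and LacZ 180 min replicate 3 or RBMS3 180 min replicate 1 or 3 (0.25 to 0.43). The 360 min call was lost without LacZ 360 min replicate 1 or 3 or RBMS3 360 min replicate 1 (0.35 to 0.41).

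DHCR7, the reductase that makes cholesterol from 7-dehydrocholesterol, measured 319.6, 183 and 352 in the 3 LacZ libraries before actinomycin D and 337, 322 and 289 after 90 min. After 180 min DHCR7 was at 359, 376 and 383 in LacZ cells, and after 360 min at 409, 409 and 433. For DHCR7, RBMS3 libraries measured 396, 454 and 435 before the drug, with 868, 842 and 788 after 90 min, then 959, 837 and 911 (180 min) and 1039, 950.4 and 1023 (360 min). Again the RBMS3 libraries were all above their LacZ counterparts, and their largest step lay between 0 and 90 min. DHCR7 rose by 0.96 ± 0.16 (adjusted p = 0.000242) to 90 min in RBMS3 cells against 0.20 ± 0.16 (adjusted p = 0.5) in LacZ cells, and stood higher by 1.40 ± 0.16 (adjusted p = 6.31e-07) at 90 min. MSMO1, the C4 sterol methyl oxidase, averaged 303 ± 8.37 at 0 min and 515 ± 27.7 at 90 min in RBMS3 cells, a rise of 0.76 ± 0.16 (adjusted p = 0.00211), and was higher than in LacZ cells at all 4 times. EBP, the sterol isomerase, rose in RBMS3 cells from 341 ± 39.3 to 515 ± 61.6, by 0.59 ± 0.12 (adjusted p = 0.00127), and was higher at the 3 later times. LBR, the lamin B receptor with sterol C14 reductase activity, started lower in RBMS3 cells (467 ± 12.5 against 689.5 ± 153; -0.53 ± 0.12, adjusted p = 0.00117) and reached 795 ± 14.1 at 90 min, where the lines no longer differed by the test. HSD17B7, a keto-reductase of C4 demethylation, was called higher at 0 min alone (1.41 ± 0.48, adjusted p = 0.0262), at 32.7 ± 4.98 against 13 ± 8.38; the annotation holds 2 pseudogene copies of it, between which tags may be split. The call of HSD17B7 was lost without LacZ 0 min replicate 1 or 3 or RBMS3 0 min replicate 2 or 3 (1.17 to 1.36). That of MSMO1 at 0 min was lost without LacZ 0 min replicate 2 or RBMS3 0 min replicate 1 or 2 (0.25 to 0.46). SC5D, the sterol C5 desaturase, passed in no comparison and averaged 239 ± 39.5 and 202 ± 56 at 360 min.

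**Figure D2:**
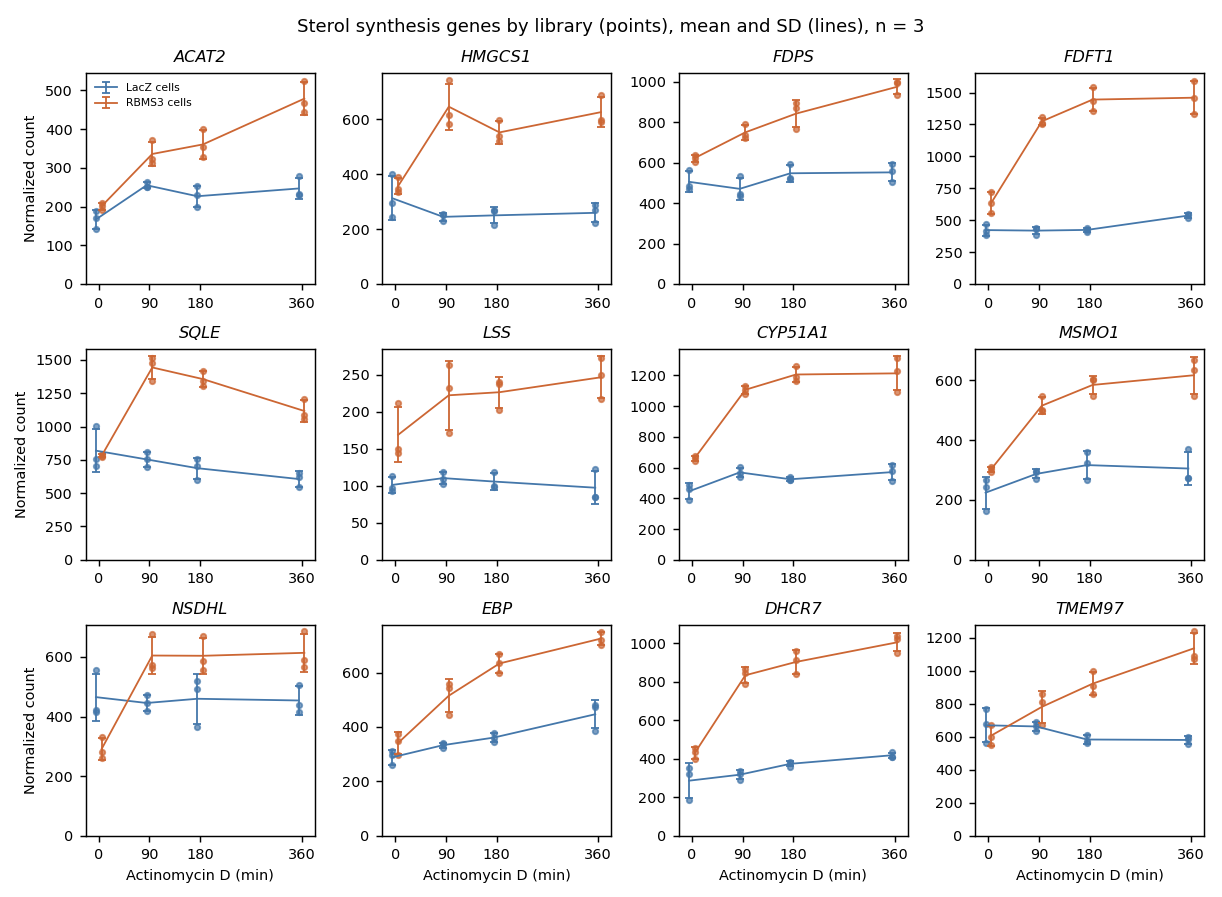
Normalized counts (y axes, each from 0) of 12 sterol genes against time in actinomycin D (x axes, min); points are the 3 libraries of a group, lines join group means, bars are SD, blue is LacZ and orange RBMS3. FDFT1, SQLE, HMGCS1, DHCR7 and NSDHL show the step of the RBMS3 libraries between 0 and 90 min, while the LacZ means of FDFT1 stay between 418 and 536.

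The control region of a gene is where SREBPs act, with NF-Y at CCAAT boxes and Sp1 as partners, so windows of 250 bases before to 50 bases after the annotated start were searched on both strands (RefSeq, GRCh38.p14). Windows were searched for 34 of 38 members and not for ACAT2, FASN, FDFT1 and SQLE. The chromosome that carries FDFT1 and SQLE was left out of the search, for members and for the background genes alike. ACAT2 and FASN had no window in the promoter set used. Whether these members hold any of the motifs was therefore not tested. The sterol regulatory element TCACNCCAC occurred in 1 of the 34 (2.94%), SREBF2, against 1.39% of 27305 genes and 1.42% of the 9551 tested genes with a window. The wider form TCACNCNAC, which includes the first, occurred in 5 (14.7%), namely SREBF2, FDPS, HSD17B7, FADS2 and ACSS2, against 3.13% and 3.33%. CCAAT occurred in 25 (73.5%), against 39.7% of all genes and 43.3% of tested genes, and the Sp1 box GGGCGG in 31 (91.2%), against 48.3% and 77.8%. A match of letters is a description and not a site, and the absence of a match says nothing of a factor. The first window printed is that of SREBF2, the one of the 34 with the stricter element and a riser over 0 to 90 min. The next is that of FDPS, a branch-point enzyme, and both have the sterol element in capitals. The third is that of NSDHL, which changed sides between the lines, with its 5 CCAAT matches of either strand in capitals, 2 of which overlap. The windows are chr22:41832855-41833154 for SREBF2, chr1:155308616-155308915 for FDPS and chrX:152830813-152831112 for NSDHL, each given 5′ to 3′ on the + strand.
SREBF2: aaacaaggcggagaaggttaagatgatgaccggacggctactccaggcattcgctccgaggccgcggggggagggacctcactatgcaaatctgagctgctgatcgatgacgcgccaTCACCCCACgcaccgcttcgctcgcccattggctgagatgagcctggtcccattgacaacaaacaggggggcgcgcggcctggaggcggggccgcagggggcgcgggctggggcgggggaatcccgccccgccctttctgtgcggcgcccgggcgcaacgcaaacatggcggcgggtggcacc
FDPS: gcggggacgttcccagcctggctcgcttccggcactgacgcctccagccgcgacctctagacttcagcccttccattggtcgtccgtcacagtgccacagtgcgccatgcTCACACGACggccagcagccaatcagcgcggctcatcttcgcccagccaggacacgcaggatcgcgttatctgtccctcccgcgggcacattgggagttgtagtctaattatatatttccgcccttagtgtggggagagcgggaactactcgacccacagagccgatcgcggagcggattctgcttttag
NSDHL: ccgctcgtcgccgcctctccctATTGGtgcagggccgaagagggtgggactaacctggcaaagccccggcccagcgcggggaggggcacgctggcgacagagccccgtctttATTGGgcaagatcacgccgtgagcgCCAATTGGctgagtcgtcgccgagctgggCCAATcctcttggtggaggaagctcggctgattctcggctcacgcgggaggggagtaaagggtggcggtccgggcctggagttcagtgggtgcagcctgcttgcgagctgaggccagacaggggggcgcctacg

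The element of SREBF2, TCACCCCAC, begins 133 bases before the annotated start, and that of FDPS, TCACACGAC, 140 bases before it.

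Within the SREBP system, SREBF2, SCAP and INSIG1 stood higher in RBMS3 cells while SREBF1 fell after actinomycin D. SREBF2, which encodes SREBP2, measured 137, 94.6 and 131 in the 3 LacZ libraries before actinomycin D and 178, 144 and 132 after 90 min. After 180 min SREBF2 was at 127, 126 and 162 in LacZ cells, and after 360 min at 158, 206 and 193. For SREBF2, RBMS3 libraries measured 128, 174 and 143 before the drug, with 266, 268 and 263 after 90 min, then 275, 203 and 254 (180 min) and 291, 359.8 and 320.0 (360 min). The lines overlapped at 0 min, and from 90 min every RBMS3 library was above every LacZ library. SREBF2 rose by 0.85 ± 0.18 (adjusted p = 0.00275) to 90 min in RBMS3 cells, against 0.33 ± 0.18 (adjusted p = 0.304) in LacZ cells. SREBF1, which encodes SREBP1, measured 69.6, 99.7 and 146 in the 3 LacZ libraries before actinomycin D and 54.4, 59.6 and 23.8 after 90 min. After 180 min SREBF1 was at 71.4, 55 and 46.8 in LacZ cells, and after 360 min at 41.7, 50.9 and 30.4. For SREBF1, RBMS3 libraries measured 75.1, 82.5 and 126 before the drug, with 17.6, 40.9 and 22.8 after 90 min, then 23.1, 12.7 and 30.4 (180 min) and 38.1, 36.6 and 19.2 (360 min). In RBMS3 cells all 9 libraries after actinomycin D lay below the lowest at 0 min; in LacZ cells 1 library at 180 min was above it. SREBF1 fell in RBMS3 cells by 1.81 ± 0.42 (adjusted p = 0.00558) at 90 min, and was lower than in LacZ cells at 180 min (-1.41 ± 0.42, adjusted p = 0.0135), a call lost without LacZ 180 min replicate 1 or RBMS3 180 min replicate 2 (-1.25 to -1.07). In LacZ cells the change to 360 min was -1.30 ± 0.42 (adjusted p = 0.0251), a call lost without LacZ 0 min replicate 2 or 3 or LacZ 360 min replicate 1 or 3 (-1.33 to -1.04). SREBF1 values carry the factor described further down.

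SCAP, the escort that carries SREBPs out of the endoplasmic reticulum, measured 379, 340.2 and 408 in the 3 LacZ libraries before actinomycin D and 406, 392 and 368 after 90 min. After 180 min SCAP was at 398, 412 and 438 in LacZ cells, and after 360 min at 469, 427 and 411. For SCAP, RBMS3 libraries measured 419, 476 and 478 before the drug, with 536, 459 and 575 after 90 min, then 577, 526 and 549 (180 min) and 699, 708 and 644 (360 min). RBMS3 libraries were above the LacZ libraries at each time, and drifted up by 360 min. The line difference was 0.29 ± 0.10 (adjusted p = 0.0342) at 0 min, -0.0139 there with ribosomal scaling, and 0.65 ± 0.10 (adjusted p = 4.24e-05) at 360 min. INSIG1, a sterol-sensing retention protein and itself an SREBP target, measured 120.3, 73.8 and 148 in the 3 LacZ libraries before actinomycin D and 98.5, 100 and 52.9 after 90 min. After 180 min INSIG1 was at 85.6, 62.9 and 70.8 in LacZ cells, and after 360 min at 77.6, 66.6 and 124. For INSIG1, RBMS3 libraries measured 219, 216 and 214 before the drug, with 166, 175 and 218 after 90 min, then 187, 131 and 227 (180 min) and 155, 211 and 249.9 (360 min). INSIG1 did not follow the step of the synthesis genes: the RBMS3 libraries stood above the LacZ libraries at all 4 times, by 0.98 ± 0.30 (adjusted p = 0.0127) at 0 min and 1.21 ± 0.30 (adjusted p = 0.00287) at 360 min. The RBMS3 change to 90 min was -0.23 ± 0.30 (adjusted p = 0.673). INSIG1 values also carry the factor described further down, and its estimated reads in RBMS3 cells were lower at 360 min than at 90 min. The 0 min calls were lost without LacZ 0 min replicate 1 or 2 or RBMS3 0 min replicate 2 or 3 (0.22 to 0.29) for SCAP and without LacZ 0 min replicate 2 (0.69) for INSIG1. INSIG2, its paralogue, measured 48.3, 14.9 and 35.1 in the 3 LacZ libraries before actinomycin D and 63.8, 33.8 and 49.7 after 90 min. After 180 min INSIG2 was at 28.1, 34.5 and 24.9 in LacZ cells, and after 360 min at 30.7, 20.3 and 33.7. For INSIG2, RBMS3 libraries measured 54.8, 35.4 and 53.3 before the drug, with 48.8, 38.2 and 14.5 after 90 min, then 17.5, 15.5 and 17.4 (180 min) and 27.7, 27.7 and 4.7 (360 min). These low counts overlapped between the lines at 0, 90 and 360 min, and no line difference passed, from 0.65 ± 0.55 at 0 min to -0.78 ± 0.55 at 360 min. Within RBMS3 cells INSIG2 fell by 1.52 ± 0.55 (adjusted p = 0.034) over 360 min, a call lost without RBMS3 0 min replicate 1 or 3 or RBMS3 360 min replicate 3 (-1.43 to -0.74).

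In all, 3 of the 4 sterol transport genes stood higher in RBMS3 cells at 180 min, where 16.2% of all tested genes were higher and 16.8% lower. NPC2, which hands cholesterol over inside lysosomes, measured 664, 569.9 and 772 in the 3 LacZ libraries before actinomycin D and 693, 663 and 693 after 90 min. After 180 min NPC2 was at 799.8, 678 and 765 in LacZ cells, and after 360 min at 895, 816 and 830.2. For NPC2, RBMS3 libraries measured 1595, 1424 and 1599 before the drug, with 1712, 1775 and 1676 after 90 min, then 1943, 1844 and 2006 (180 min) and 2465, 2208 and 2218 (360 min). NPC2 was far above the LacZ level at every time, with no overlap, by 1.21 ± 0.09 (adjusted p = 2.08e-09) at 0 min and 1.44 ± 0.09 (adjusted p = 1.53e-10) at 360 min; the change to 90 min passed in neither line. TMEM97, an endoplasmic reticulum and lysosome protein, the sigma-2 receptor, that binds NPC1, measured 563, 768 and 677 in the 3 LacZ libraries before actinomycin D and 636, 686 and 663 after 90 min. After 180 min TMEM97 was at 573, 613 and 562 in LacZ cells, and after 360 min at 586, 599.6 and 554. For TMEM97, RBMS3 libraries measured 550.1, 669.9 and 599.7 before the drug, with 673, 811 and 859 after 90 min, then 907, 997 and 860.3 (180 min) and 1244, 1073 and 1091 (360 min). The lines overlapped at 0 min and at 90 min and were apart from 180 min on, as the RBMS3 libraries climbed. TMEM97 differed by -0.13 ± 0.11 (adjusted p = 0.388) at 0 min and by 0.97 ± 0.11 (adjusted p = 1.07e-06) at 360 min. Its rise to 90 min in RBMS3 cells (0.36 ± 0.11, adjusted p = 0.0377) was lost without RBMS3 0 min replicate 1 or 3 or RBMS3 90 min replicate 2 or 3 (0.29 to 0.36). The annotation places its 3′ end within IFT20 on the other strand. STARD4, a cytosolic sterol carrier, measured 165, 124 and 32.2 in the 3 LacZ libraries before actinomycin D and 35.1, 24.9 and 36.5 after 90 min. After 180 min STARD4 was at 57.2, 23.3 and 38.5 in LacZ cells, and after 360 min at 33.3, 16.7 and 24.8. For STARD4, RBMS3 libraries measured 77.2, 71.5 and 179 before the drug, with 73.9, 101 and 136 after 90 min, then 148, 140.3 and 124 (180 min) and 134, 71.8 and 166 (360 min). The lines overlapped at 0 min, where both spread widely, and every later RBMS3 library was above the LacZ libraries of its time. STARD4 was higher in RBMS3 cells by 1.64 ± 0.50 (adjusted p = 0.0159) at 90 min and 2.24 ± 0.50 (adjusted p = 0.00132) at 360 min, and changed by -1.82 ± 0.50 (adjusted p = 0.00892) to 360 min in LacZ cells. The 90 min call was lost without LacZ 90 min replicate 2 or RBMS3 90 min replicate 3 (1.42 to 1.47) and the LacZ change without LacZ 0 min replicate 1 (-1.36). STARD4 values carry the factor described further down. NPC1, the lysosomal cholesterol exporter, passed no test and averaged 267 ± 82.4 and 276 ± 96 at 90 min.

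Of the 9 fatty acid genes, 4 (ACLY, FASN, SCD and FADS1) were higher in RBMS3 cells at 0 min (background 18.6%). Over the first 90 min 0 of the 9 rose in RBMS3 cells (limma; 1, ELOVL6, at an unadjusted p under 0.05) and 1, ACACA, fell, where 7.99% of all tested genes rose and 6.52% fell, so that neither count stands apart from all genes. In LacZ cells 3 rose (ACLY, SCD and FADS1) and ACACA fell (background 3.44% and 2.74%). The difference between the lines in this change passed in 0 of the 9 (limma; 3 at an unadjusted p under 0.05); fatty acid and sterol genes were not tested against each other. FADS1, the delta-5 desaturase of polyunsaturated fatty acids, measured 396, 438 and 337 in the 3 LacZ libraries before actinomycin D and 556, 576 and 487 after 90 min. After 180 min FADS1 was at 639, 857 and 588 in LacZ cells, and after 360 min at 669.9, 609.7 and 663. For FADS1, RBMS3 libraries measured 1845, 1974 and 1872 before the drug, with 1964, 1960.4 and 2040.0 after 90 min, then 2134, 2475 and 2277 (180 min) and 2618, 2679 and 2512 (360 min). No LacZ library came near the RBMS3 libraries, and the gap was widest at 0 min: 2.29 ± 0.12 (adjusted p = 2.09e-12), then 1.88 ± 0.12 (adjusted p = 5.65e-11) at 90 min and 2.01 ± 0.12 (adjusted p = 1.92e-11) at 360 min. FADS1 rose to 90 min in LacZ cells (0.47 ± 0.12, adjusted p = 0.018) and changed by 0.07 ± 0.12 (adjusted p = 0.752) in RBMS3 cells. The LacZ rise was lost without LacZ 0 min replicate 3 or LacZ 90 min replicate 1 or 2 (0.37 to 0.45). Its 3′ end lies within FADS2 in the annotation. SCD, stearoyl-CoA desaturase, which makes monounsaturated fatty acids, measured 450.0, 282 and 471 in the 3 LacZ libraries before actinomycin D and 612, 512 and 517 after 90 min. After 180 min SCD was at 601, 549 and 598 in LacZ cells, and after 360 min at 564, 651 and 654. For SCD, RBMS3 libraries measured 1291, 1245 and 1269 before the drug, with 1226, 1257 and 1074 after 90 min, then 1212, 1242 and 1239.9 (180 min) and 1453, 1275 and 1370.5 (360 min). The lowest RBMS3 library was at 1074 and the highest LacZ library at 654. The difference was 1.70 ± 0.14 (adjusted p = 3.65e-09) at 0 min and 1.12 ± 0.14 (adjusted p = 2.02e-06) at 90 min. The LacZ rise to 90 min was 0.48 ± 0.14 (adjusted p = 0.0427), lost without LacZ 0 min replicate 2 or LacZ 90 min replicate 1 or 2 or 3 (0.24 to 0.52).

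ACLY, the citrate lyase that supplies cytosolic acetyl-CoA, averaged 964 ± 74.9 and 1571 ± 92.8 at 0 min, a difference of 0.71 ± 0.08 (adjusted p = 5.03e-07), and 0.49 ± 0.08 (adjusted p = 6.34e-05) at 360 min. FASN, the fatty acid synthase, averaged 1027 ± 46.2 and 1729 ± 181 at 0 min (0.75 ± 0.15, adjusted p = 0.000377). Its call at 90 min (0.40 ± 0.15, adjusted p = 0.0426) was lost without LacZ 90 min replicate 1 or 3 or RBMS3 90 min replicate 1 or 2 (0.24 to 0.39). ACSS2, an acetyl-CoA synthetase, was higher at 360 min alone (113 ± 21.4 against 43.2 ± 7.19; 1.36 ± 0.49, adjusted p = 0.0343), a call lost without LacZ 360 min replicate 2 or 3 or RBMS3 360 min replicate 1 or 2 (1.24 to 1.34). FADS2, the delta-6 desaturase, was higher at 180 min alone (2.33 ± 0.50, adjusted p = 0.00109), at 245, 80.6 and 271 against 28.1, 45.7 and 30.3. FADS2 values carry the factor described further down, which was not measured for LacZ cells at 180 min. ACACA, the acetyl-CoA carboxylase, dropped in both lines, from 598 ± 169.7 to 241 ± 99 in LacZ and from 572 ± 196 to 140.3 ± 38.1 in RBMS3 cells. The changes were -1.34 ± 0.38 (adjusted p = 0.0403) and -2.00 ± 0.38 (adjusted p = 0.00104), and the LacZ call was lost without LacZ 0 min replicate 1 or 3 or LacZ 90 min replicate 1 or 3 (-1.39 to -1.13). ACACA values carry the factor described further down, where the estimated reads show no drop of this size. The elongases ELOVL5 and ELOVL6 passed no test; ELOVL6 held 2 extreme values, 1643 in LacZ replicate 2 and 831 in RBMS3 replicate 1, both at 90 min, against 189.9 to 383 elsewhere.

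**Figure D3:**
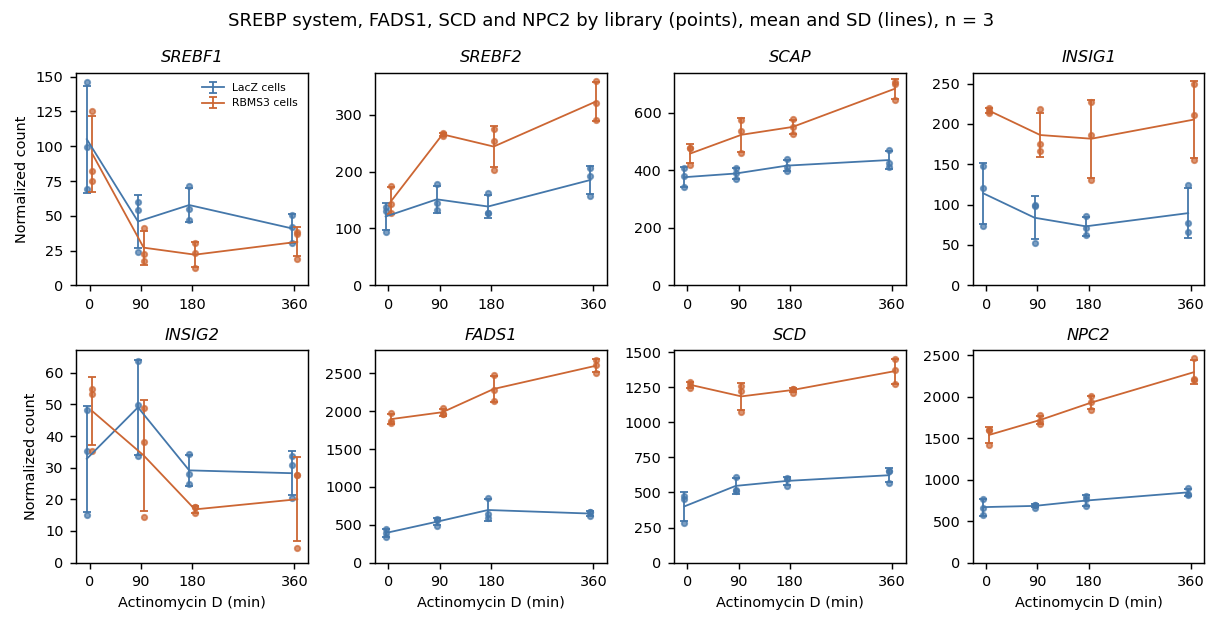
Normalized counts (y axes, each from 0) of the 5 SREBP system genes and of FADS1, SCD and NPC2 against time in actinomycin D (x axes, min); points are the 3 libraries of a group, lines join group means, bars are SD, blue is LacZ and orange RBMS3. FADS1, SCD and NPC2 are apart from 0 min on, SREBF2 separates from 90 min, and SREBF1 drops in both lines.

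The study's question concerns change over time, so the change from 0 to 90 min was set side by side for the 2 lines. In RBMS3 cells 15 of 37 members rose and 2 fell (background 7.99% and 6.52%), with a median change of 0.36; in LacZ cells 5 rose and 1 fell (3.44% and 2.74%), with a median of 0.09. The LacZ counts moved with the fit and the libraries: 0 rose and 0 fell with only the compared groups fitted, 2 rose with equal totals, 1 rose without LacZ 90 min replicate 2, and 2 rose and 0 fell without LacZ 90 min replicate 1 or 3. ACAT2 and CYP51A1 were the 2 members that rose in both. The difference of the 2 changes, a comparison added after the values had been seen, passed in 6 members, all with the larger rise in RBMS3 cells (background 2.71%), and in 0 with the smaller (2.52%; 2 without LacZ 0 min replicate 1, 1 without replicate 3). With ribosomal scaling 11 members passed, all with the larger rise, and the calls over all genes went from 328 larger and 305 smaller to 1054 and 166, with the median of all genes at 0.23 against -0.02. Without rescaling, the 6 were HMGCS1 (1.17 ± 0.22, adjusted p = 0.00273), FDFT1 (1.02 ± 0.14, adjusted p = 0.000153), NSDHL (1.11 ± 0.21, adjusted p = 0.00273), SQLE (0.99 ± 0.16, adjusted p = 0.000857), MVK (1.76 ± 0.36, adjusted p = 0.00512) and LBR (0.66 ± 0.17, adjusted p = 0.0246). All 6 are enzymes of sterol synthesis, and LBR lost its call without LacZ 0 min replicate 1 or 3 or LacZ 90 min replicate 1 or RBMS3 0 min replicate 2 or RBMS3 90 min replicate 2 (0.52 to 0.64). DHCR7 (0.76 ± 0.22, adjusted p = 0.0517) was just outside the threshold and MVD, with the largest estimate, was far from it (3.27 ± 1.18, adjusted p = 0.125). The 3 fatty acid genes ACLY, SCD and FADS1 had a smaller rise in RBMS3 cells at an unadjusted limma p under 0.05, and their adjusted p-values were 0.0753, 0.0955 and 0.181. The step of 15 members up and 2 down in RBMS3 cells was also found with each library scaled to the ribosomal protein genes, while in LacZ cells that scaling gave 0 up and 5 down. Ribosomal protein genes themselves had a median change of -0.0055 in RBMS3 cells, so the scaling is a weak check there. Over all genes it turned the RBMS3 split from 967 rising and 789 falling into 1174 and 716. Without LacZ replicate 2 at 0 min, 3 rose and 1 fell in LacZ cells and 8 members passed the test of the difference. Over all genes the LacZ split moved from 416 rising and 331 falling to 98 and 910, and to 287 and 397 with equal totals. Over the same 90 min, 2 of the 10 mesenchymal markers rose and 5 fell in RBMS3 cells, and 1 rose and 0 fell in LacZ cells. Of the 10 epithelial markers 0 rose and 4 fell in RBMS3 cells, where their summed level was 12439 to 12575 at 0 min and 4538 to 5017 at 90 min; in LacZ cells 0 passed, with sums of 17645 to 19694 and then 19682 to 20084. The mesenchymal sum ranged from 53863 to 58297 and then from 41535 to 43229 in RBMS3 cells, and from 8241 to 8833 and then from 8932 to 9456 in LacZ cells. The part of either list in the result was not tested.

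**Figure D4:**
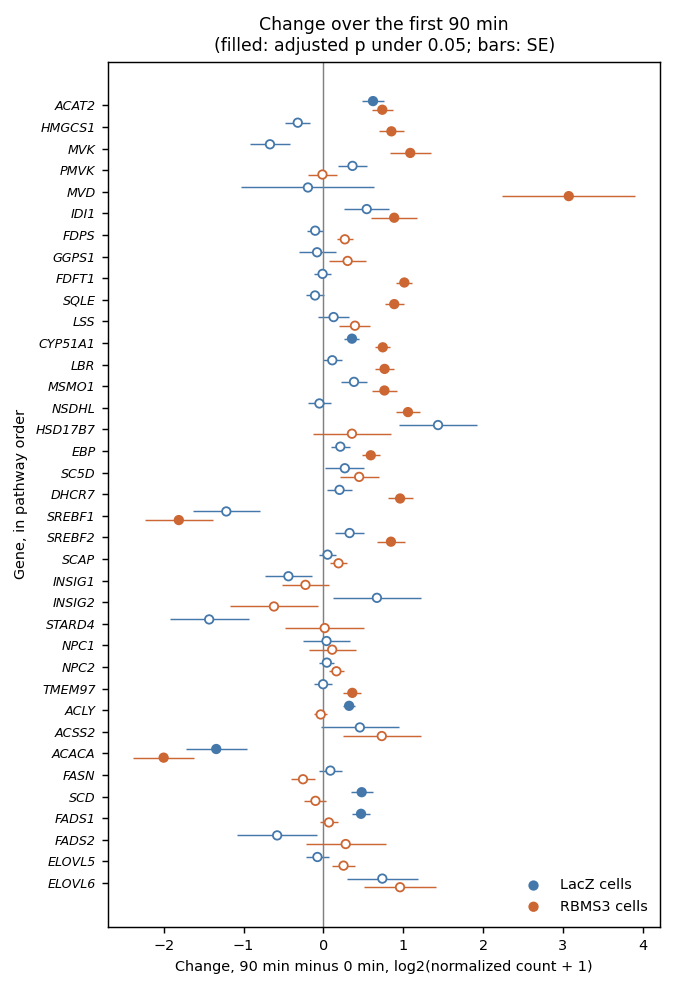
Change from 0 to 90 min of actinomycin D (x axis, difference in log2(normalized count + 1), bars are SE) for each tested member in pathway order (y axis), in LacZ cells (blue) and RBMS3 cells (orange), with 3 libraries in each group; filled points have an adjusted p under 0.05 (limma). The 15 filled orange points to the right of 0 all lie above the fatty acid genes at the foot of the plot, and the 2 to the left are SREBF1 and ACACA.

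Fitted as a straight line over 0, 1.5, 3 and 6 h, the slope was steeper upward in RBMS3 than in LacZ cells for 8 members and less so for 0 (background 2.93% and 2.24%; HSD17B7 and SCD had a lower slope at an unadjusted limma p under 0.05). In log2 units per hour the differences were TMEM97 0.18 ± 0.03 (adjusted p = 0.000195), FDFT1 0.11 ± 0.02 (adjusted p = 0.0057), SQLE 0.12 ± 0.03 (adjusted p = 0.00735), MVK 0.26 ± 0.06 (adjusted p = 0.00901) and NSDHL 0.15 ± 0.03 (adjusted p = 0.0116). ACAT2 (0.12 ± 0.03, adjusted p = 0.0261), HMGCS1 (0.13 ± 0.04, adjusted p = 0.0324) and CYP51A1 (0.08 ± 0.02, adjusted p = 0.0366) completed the 8. Each of these 3 lost its call when 1 of several libraries was left out: ACAT2 without LacZ 360 min replicate 1 or 3 or RBMS3 0 min replicate 1 or RBMS3 360 min replicate 1 or 2 (0.11 to 0.12). HMGCS1 lost it without LacZ 0 min replicate 1 or LacZ 360 min replicate 1 or 2 or RBMS3 0 min replicate 2 or 3 or RBMS3 360 min replicate 1 or 2 (0.11 to 0.14). CYP51A1 lost it without LacZ 0 min replicate 1 or 3 or LacZ 90 min replicate 3 or LacZ 360 min replicate 1 or 2 or RBMS3 0 min replicate 1 or 2 or 3 or RBMS3 360 min replicate 1 or 3 (0.07 to 0.08). A straight line describes TMEM97 and ACAT2, whose RBMS3 libraries climbed through 360 min, more closely than HMGCS1 or NSDHL, whose RBMS3 libraries moved mainly before 90 min. Without LacZ replicate 1 or RBMS3 replicate 1 at 360 min, 5 members passed in place of 8, and without LacZ replicate 2 at 0 min 11 did. Over all genes, ribosomal scaling turned 355 higher and 271 lower slopes into 572 and 203, and 9 members then passed. From 0 to 360 min 20 members rose and 3 fell in RBMS3 cells (background 19.1% and 18.6%), and 13 rose and 5 fell in LacZ cells (14.9% and 13.6%). From 90 to 360 min in RBMS3 cells 7 rose (ACAT2, FDPS, EBP, SCAP, NPC2, TMEM97 and FADS1) and 1 fell, SQLE (7.62% and 8.35%; 3 rose without RBMS3 90 min replicate 2 and 4 without RBMS3 360 min replicate 1, and 0 fell without replicate 1 or 3 of either time), and FDFT1, DHCR7, HMGCS1, MSMO1 and NSDHL did not pass. These later changes depend on the scaling: 6 of the 13 LacZ rises and 4 of the 7 RBMS3 rises from 90 min turned below 0 when libraries were scaled to ribosomal protein genes. With equal library totals 4 members rose in LacZ cells to 360 min and 1 rose in RBMS3 cells from 90 to 360 min; with ribosomal scaling 0 rose in either, while 14 and 7 fell, and 11 rose from 0 to 360 min in RBMS3 cells. That scaling gave a median over all genes of -0.50, against 0.03, in LacZ cells to 360 min and split its calls into 131 rising and 4698 falling genes, against 1800 and 1642 (845 and 2225 with equal totals). In RBMS3 cells the splits became 769 and 3851 to 360 min, against 2308 and 2244 (1307 and 2998 with equal totals), and 33 and 3139 from 90 min, against 922 and 1010 (277 and 1537).

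How far the deposited values follow the tags differed between members. For the 12 libraries whose transcript file carries the same name as its sample (LacZ 0 min and RBMS3 90, 180 and 360 min), the ratio of a gene's table value to its estimated read count was compared over libraries. This factor ranged less than 1.5-fold for 24 members and at least 1.5-fold for 14, against a median range of 1.25-fold over 8338 genes with at least 20 reads in each library. It was nearly constant for ACAT2 (1.00-fold), DHCR7 (1.00), SCD (1.00), SQLE (1.01), FADS1 (1.02), LSS (1.05), FDFT1 (1.12) and NSDHL (1.14), and larger for HMGCS1 (1.29), MVK (1.36) and CYP51A1 (1.38). It was largest for MVD (9.58), FADS2 (8.65), ACACA (7.48), SREBF1 (6.04), STARD4 (4.78), ELOVL6 (3.45) and TM7SF2 (3.23), so for these genes a change in the table can come with no like change in tags; the source of the factor was not tested. Among the 24 steady members, counted so after seeing the data, the line comparison called 14 higher and 3 lower at 0 min. Over all tested genes the shares were 18.6% and 18.9%. At the later times the line comparison called 18, 20 and 20 higher and 0 lower, with none lower at an unadjusted limma p under 0.05. The background was 14.9% to 17.5% higher and 15.0% to 17.7% lower. From 0 to 90 min 13 rose and 0 fell in RBMS3 cells (background 7.99% and 6.52%), and 5 rose and 0 fell in LacZ cells (3.44% and 2.74%). These comparisons also use RBMS3 0 min or later LacZ libraries, for which the factor was not measured, so steady describes the 12 measured libraries alone. At an unadjusted limma p under 0.05, 1 steady member (MVK) fell to 90 min in LacZ and 0 in RBMS3 cells. Each of the 6 members with a larger rise in RBMS3 cells over 0 to 90 min, and each of the 8 with a steeper slope, is among those 24. A factor that varies within a group also widens its spread, as for MVD, so members outside the 24 could pass less easily and this overlap is no check.

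**Figure D5:**
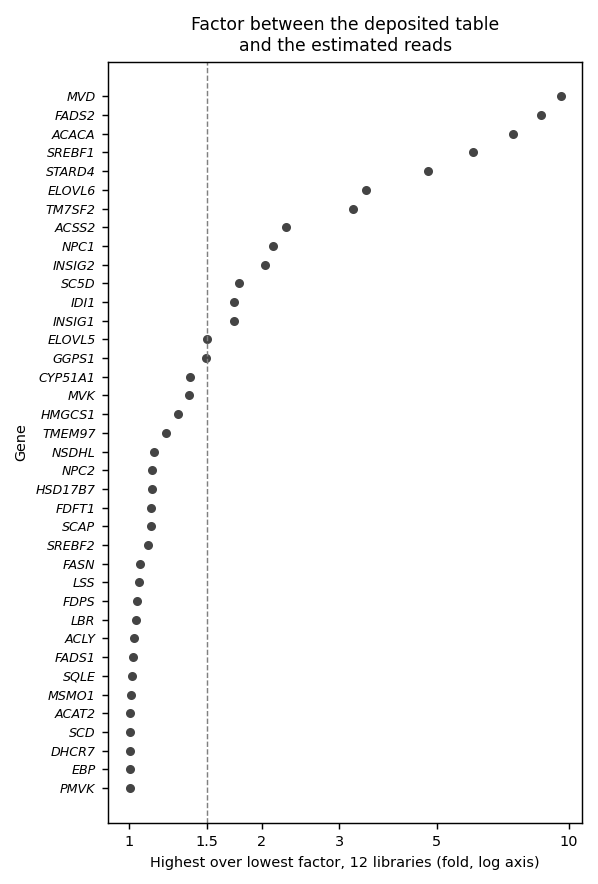
Highest over lowest factor between the deposited table and the estimated reads over 12 libraries (x axis, fold, log axis) for each of the 38 members (y axis); the dashed line marks 1.5-fold. The 24 members left of the line include FDFT1, SQLE, DHCR7 and FADS1, and MVD, FADS2, ACACA and SREBF1 lie at the far right.

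Calls in neighbouring pathways at 360 min went both ways in 5 of 6 lists, where the background was 17.5% higher and 17.7% lower; no list was tested against the members. Means ± SD are given for 3 RBMS3 libraries against 3 LacZ libraries. Of 11 genes of SREBP processing and sterol-regulated degradation, 2 were higher, ERLIN2 (224 ± 7.06 against 129 ± 11.3, adjusted p = 0.0013) and UBXN8 (118 ± 62.1 against 48.1 ± 24.5, adjusted p = 0.0262), both of endoplasmic reticulum degradation. Of the 2 lower ones FBXW7 is a ubiquitin ligase subunit for nuclear SREBP (79.6 ± 19.9 against 151 ± 49.5, adjusted p = 0.0386). Of 8 tested genes of cholesterol export, esterification and oxysterol response, 1 was higher and 1 lower; the higher one was SCARB1, a lipoprotein receptor (505 ± 73.5 against 329 ± 31.9, adjusted p = 0.00396). Of 14 genes of isoprenoid branches 2 were called, both higher: FNTA, a subunit of protein prenyltransferases (321 ± 22.4 against 170.2 ± 19.1, adjusted p = 0.0023), and COQ2 of ubiquinone synthesis (389 ± 13 against 248 ± 11.5, adjusted p = 0.0227). Of 22 tested genes of fatty acid activation, elongation and triglyceride synthesis 6 were higher and 8 lower. Among the lower were SCD5, the paralogue of SCD (12.1 ± 4.15 against 116 ± 9.24, adjusted p = 1.09e-05), and the elongases ELOVL4 (31.6 ± 5.99 against 133 ± 7.96, adjusted p = 9.74e-07) and ELOVL7 (16.8 ± 8.58 against 58.9 ± 8.19, adjusted p = 0.00118). Of 13 tested genes of fatty acid oxidation 4 were higher and 1 lower. The higher ones included ETFA, an electron carrier (2279 ± 262 against 1028 ± 135, adjusted p = 0.00229), and SLC25A20, the carnitine carrier (68.8 ± 13.6 against 24.4 ± 5.58, adjusted p = 0.003). The lower one was ACADM, an acyl-CoA dehydrogenase (289 ± 56 against 479 ± 127, adjusted p = 0.0237). Of 8 genes of peroxisomes and ether lipids 2 were higher, FAR1 (708 ± 40.4 against 484 ± 37.7, adjusted p = 0.0301) and GNPAT (389 ± 46.7 against 287 ± 19.9, adjusted p = 0.0267), both of ether lipid synthesis. The 1 lower gene was ABCD3, a peroxisomal transporter (319.8 ± 33.9 against 576 ± 76.1, adjusted p = 0.00118). Over the first 90 min in RBMS3 cells, 6 genes of the 6 lists rose (NCEH1, PDSS1, AGPAT2, ELOVL1, MGLL and CPT1A) and 2 fell (FBXW7 and ACADVL), of 11, 8, 14, 22, 13 and 8 tested in the order above (background 7.99% and 6.52%).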

How the data were processed

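RNA of 24 libraries was sequenced as 3′ tags (QuantSeq, per the labels' protocols). The deposited table holds gene values that the authors call normalized counts, a signal that is not in whole reads; the submitters' processing notes name DESeq2 1.32.0, Salmon 1.4.0 and Trim Galore 0.6.6, and the sources used here give no genome build or annotation. The authors also deposited 24 Salmon files of estimated counts per transcript. Every such file is closest to the table column of its own name (over 12083 genes), but the sample record and the file name disagree for 12 of 24, so estimated counts were used only for the 12 that agree: 88.4% of 231288 transcripts were matched to a gene, with 95.1% to 95.7% of the estimated counts, and library totals ran from 4220623 to 9396494.

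From the table, limma 3.58.1 (trend; R 4.3.3) was fitted on log2(value + 1) with 8 group means to genes with a mean of at least 10, with Benjamini-Hochberg adjustment over 12096 genes and a threshold of 0.05, and was tested on simulated data; every adjusted p is from this fit. edgeR 4.0.16 and DESeq2 1.42.0 were alternatives on rounded estimated counts of the 9 RBMS3 libraries after actinomycin D. Other alternatives were scaling to equal totals or to ribosomal protein genes, pseudocounts of 0.5 and 10, other filters, robust variances, a fit of the compared groups only, a replicate block and leaving out each library. Replicate numbers did not pair libraries. The members and lists were chosen with earlier results of these data known; the test of the 0 to 90 min difference and the subset with a steady factor were added after seeing the data. Library values are given for the 10 members with the largest average line difference among those called at 2 or more times, the 6 with the smallest slope p and the 5 of the SREBP system, and other pathway lists name up to 3 genes called at 360 min with a mean of at least 50. Annotated 3′ ends of 9 members lie in a gene of the other strand (ACAT2, FADS1, FDPS, HMGCS1, IDI1, LSS, NPC1, SREBF1 and TMEM97) and 6 have pseudogene copies (CYP51A1, FADS2, FDPS, HSD17B7, SCD and TMEM97), by GENCODE names, so their counts are uncertain.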

Additional observations from a re-analysis of the deposited data

Results flagged for a closer look

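The change over time differed between the lines, by a test of the difference itself (limma, adjusted over all 12096 genes), in 14 results on 9 members. For the slope, in log2 units per hour, RBMS3 minus LacZ, the values were 0.18 ± 0.03 (adjusted p = 0.000195) for TMEM97, 0.11 ± 0.02 (adjusted p = 0.0057) for FDFT1, 0.12 ± 0.03 (adjusted p = 0.00735) for SQLE and 0.26 ± 0.06 (adjusted p = 0.00901) for MVK. They were 0.15 ± 0.03 (adjusted p = 0.0116) for NSDHL, 0.12 ± 0.03 (adjusted p = 0.0261) for ACAT2, 0.13 ± 0.04 (adjusted p = 0.0324) for HMGCS1 and 0.0779 ± 0.02 (adjusted p = 0.0366) for CYP51A1. For the change from 0 to 90 min the values were 1.17 ± 0.22 (adjusted p = 0.00273) for HMGCS1, 1.76 ± 0.36 (adjusted p = 0.00512) for MVK and 1.02 ± 0.14 (adjusted p = 0.000153) for FDFT1. They were 0.99 ± 0.16 (adjusted p = 0.000857) for SQLE, 0.66 ± 0.17 (adjusted p = 0.0246) for LBR and 1.11 ± 0.21 (adjusted p = 0.00273) for NSDHL. HMGCS1, MVK, FDFT1, SQLE and NSDHL passed in both, and the 2 measures share the 0 and 90 min libraries. Groups of 3 libraries are too small for a test of single outlying libraries.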

How the results depend on the processing

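Of 175 member calls, 104 were kept under every alternative and 127 with any 1 library left out; pseudocounts of 0.5 and 10 lost 0 and 1, robust variances 1, a mean of at least 50 lost 0 of 172, no filter 16, equal totals 26, a fit of the compared groups only 40, and ribosomal scaling 36 with 11 turned in sign. Ribosomal scaling gave 7 higher members at 0 min (15 as reported), 1 lower at 360 min (0), 0 rising and 5 falling to 90 min in LacZ cells (5 and 1), and 0 rising and 14 falling to 360 min in LacZ cells (13 and 5). In RBMS3 cells it gave 11 rising and 5 falling to 360 min (20 and 3), 0 rising and 7 falling from 90 to 360 min (7 and 1), and 11 members with a larger rise to 90 min (6). It turned SCAP at 0 min to -0.0139, ACLY, CYP51A1, FDFT1, MSMO1, NPC2 and PMVK in LacZ cells to 360 min to -0.162, -0.182, -0.193, -0.0834, -0.191 and -0.0142, and FADS1, FDPS, NPC2 and SCAP in RBMS3 cells from 90 to 360 min to -0.0484, -0.0568, -0.0214 and -0.0462. Equal totals gave 2 rising to 90 min and 4 to 360 min in LacZ cells, and 1 from 90 to 360 min in RBMS3 cells. The compared groups alone, with fewer libraries to set the spread, gave 8 higher and 2 lower at 0 min, 0 rising and 0 falling to 90 min in LacZ cells, and 2 rising and 0 falling to 360 min there. Without a filter 0 fell to 90 min in LacZ cells and 0 from 90 to 360 min in RBMS3 cells. edgeR called 11 members rising from 90 to 360 min in RBMS3 cells, where it called 1425 of 12362 genes rising, against 922 of 12096 by limma. Both edgeR and DESeq2 kept the 8 calls of that comparison. Over all genes, the 0 to 90 min difference split 1054 higher and 166 lower with ribosomal scaling, against 328 and 305. The cause of these changes was not tested.

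With 1 library left out, 1 to 5 members rose and 0 to 1 fell to 90 min in LacZ cells, lowest for rises without LacZ 90 min replicate 2, and with fewer rises also without LacZ 0 min replicate 2 or LacZ 90 min replicate 1 or 3; 0 fell without LacZ 90 min replicate 1 or 3. To 360 min 10 to 14 rose and 3 to 4 fell in LacZ cells (3 without LacZ 0 min replicate 2 or LacZ 360 min replicate 2), and 16 to 20 rose and 1 to 3 fell in RBMS3 cells (1 without RBMS3 0 min replicate 3). From 90 to 360 min 3 to 7 rose and 0 to 1 fell in RBMS3 cells, with 3 rising without RBMS3 90 min replicate 2, 4 without RBMS3 360 min replicate 1, and 0 falling without replicate 1 or 3 of either time. At 180 min 0 to 1 were lower (0 without LacZ 180 min replicate 1 or RBMS3 180 min replicate 2), and at 0 min 11 to 15 were higher and 3 to 4 lower. The slope passed in 5 to 11, and the 0 to 90 min difference in 5 to 8, with 0 to 2 in the other direction (2 without LacZ 0 min replicate 1, 1 without replicate 3).

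Same-numbered libraries did not deviate together (84 pairs, correlations from -0.11 to 0.12, 1 over 0.1), and a fit with the replicate block lost 2 of 175 calls, HSD17B7 to 360 min in LacZ cells and IDI1 to 90 min in RBMS3 cells. With the replicate block the higher or rising and lower or falling counts were 15 and 4, 21 and 0, 24 and 1 and 24 and 0 between the lines at the 4 times, 5 and 1 and 12 and 5 in LacZ cells, 14 and 2, 20 and 3 and 7 and 1 in RBMS3 cells, 8 and 0 for slopes and 6 and 0 for the 0 to 90 min difference. Depth limits TM7SF2, at most 34.3 normalized counts in a library, and INSIG2.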

Other observations

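Outside the members, 2 lipid genes with a step of the same kind over the first 90 min were singled out after their values had been seen. CPT1A, the carnitine palmitoyltransferase that admits fatty acids to mitochondria for oxidation, went from 257 ± 89.8 to 719 ± 40.4 normalized counts (SD, n = 3) in RBMS3 cells, a rise of 1.53 ± 0.15 (adjusted p = 6.71e-07). In LacZ cells it went from 575 ± 53.7 to 613 ± 20.7, a change of 0.10 ± 0.15 (adjusted p = 0.784). The difference between the lines in that change was 1.44 ± 0.22 (adjusted p = 0.000404) by limma, and the slope difference was 0.19 ± 0.03 (adjusted p = 0.00185) in log2 units per hour. NCEH1, a cholesteryl ester hydrolase, went from 269.8 ± 18 to 448 ± 60.4 in RBMS3 cells and from 441 ± 45 to 436 ± 23.4 in LacZ cells, with a difference in change of 0.73 ± 0.18 (adjusted p = 0.0202). Both stood lower in RBMS3 than in LacZ cells at 0 min, with differences of -1.21 ± 0.15 (adjusted p = 2.63e-06) for CPT1A and -0.70 ± 0.13 (adjusted p = 0.00018) for NCEH1 on the log2 scale. Of the peroxisomal genes, ABCD3 had a difference in the opposite direction over the first 90 min, -0.91 ± 0.26 (adjusted p = 0.0455), and ACSL4, a ligase for polyunsaturated fatty acids, had a lower slope in RBMS3 cells, -0.14 ± 0.04 (adjusted p = 0.0417) per hour. These genes were tested in the same fit over all 12096 genes, of which 2.71% had a larger and 2.52% a smaller change over 0 to 90 min in RBMS3 cells.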
